A study of Homo sapiens and Mus musculus with 16 samples.

Results

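FOXA1, FOXA2 and FOXA3 are 3 human genes for forkhead transcription factors, and this account covers the open chromatin around them and around their mouse orthologs Foxa1, Foxa2 and Foxa3. An accessible region was a member if it overlapped 1 of these genes or the 100 kb on either side of it, with no use of its score or of its presence in other lists. By this rule 191 of 364071 listed regions were members, 49 in HPAF-II control cells, 42 in HPAF-II HNF4G-KO cells, 48 in the KPC primary tumor line and 52 in the KPC liver mets line. ATAC-seq, in which a transposase cuts DNA that is free of nucleosomes, was run on 4 samples of each of these 4 groups. HPAF-II is a human pancreatic adenocarcinoma line, which the study grew as a Cas9 control or with HNF4G disrupted by CRISPR, the knockout being a pool of clones. The KPC lines came from a mouse model of pancreatic ductal adenocarcinoma, in which tumors arise in place, and were taken from a primary tumor and its liver metastasis. The labels give the genotype WT for both KPC lines and for the Cas9 control and call the KPC lines untreated, and the study calls the lines matched and isogenic.

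FOXA proteins are known as pioneer factors: their winged-helix domain binds its sites on nucleosomal DNA and opens the site for other factors. They take part in the specification of foregut endoderm, from which liver and pancreas arise, and later share many enhancers with the HNF4 nuclear receptors. FOXA1 and FOXA2 overlap in function in the pancreas, and FOXA3 is best known from liver genes. HNF4G, the gene disrupted in the knockout, encodes an HNF4 nuclear receptor.

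Each group was represented by 1 list of regions with no values of its 4 single samples, so no value had a replicate error and no p-value was computed. Each region carried a deposited score, read here as its percentile within its own list, from 0 for the weakest to 100 for the strongest. Read depth was unknown. A region counted as shared when at least 1 bp overlapped a region of the other list of its pair, and intervals on shares are 95% Wilson intervals that cover counting error only. The lists of a pair differed in length, with 118107 regions in control and 97047 in HNF4G-KO, and with 68074 in the primary tumor line and 80843 in the liver mets line. All 6 epithelial markers examined had a region at a start site in every list. Their median percentiles were 80.0 in control, 76.2 in HNF4G-KO, 31.0 in the primary tumor line and 44.6 in the liver mets line. Of 3 endothelial markers PECAM1 and KDR had one in both KPC lists, with medians of 69.4 and 65.3, and CDH5 did not. None of the 3 had one in either HPAF-II list. Of 4 hepatocyte markers TTR and SERPINA1 had such a region in the HPAF-II lists, and of the 3 found in mouse TTR had one in the primary tumor line and none in the liver mets line. Of 4 fibroblast markers 3 had one in the HPAF-II lists and 1 in the KPC lists, and among 3 immune markers CD68 was the only one with such a region. The part of any other cell type in the regions described here was not tested.

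The sequences that the results turn on are shown first, read 5′ to 3′ on the strand of the FOXA gene, with capitals on the searched words. The words were the FOXA consensus TGTTTAC and its variant TGTTTGC, the HNF4 word CAAAGTCCA, the GATA word AGATAAG, the AP-1 word TGACTCA and the TEAD word ACATTCCA, on both strands. Upstream stretches of FOXA1 at chr14:37595349-37595499 (minus strand) and of FOXA3 at chr19:45864192-45864325 (plus strand) are the parts of the RefSeq promoter table, build GRCh38, that lie before the RefSeq start and clear of annotated exons. Both lie within the GENCODE gene body, between exons, and are shown because the region over each start site covers them. Of the 3 members, 2 matched that table.
FOXA1 upstream: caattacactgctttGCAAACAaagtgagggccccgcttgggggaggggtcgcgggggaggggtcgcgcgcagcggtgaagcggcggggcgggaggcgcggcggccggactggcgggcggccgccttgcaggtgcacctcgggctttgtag
FOXA3 upstream: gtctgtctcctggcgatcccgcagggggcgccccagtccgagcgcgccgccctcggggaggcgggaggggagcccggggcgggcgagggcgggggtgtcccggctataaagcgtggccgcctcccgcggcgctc

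The next pairs show a FOXA or HNF4 word that lies at the aligned position in human and in mouse. At FOXA2 the only HNF4 word in any human member lies 61.2 kb downstream of the start, in chr20:22524210-22524303 (hg38, minus strand), and the mouse sequence 53.4 kb downstream of Foxa2, in chr2:147993472-147993580 (mm10, minus strand), holds the same 9 letters. The human region lies at a start site of the noncoding gene ENSG00000288974, and the mouse stretch in an intron of the noncoding gene 9030622O22Rik.
FOXA2 downstream, human: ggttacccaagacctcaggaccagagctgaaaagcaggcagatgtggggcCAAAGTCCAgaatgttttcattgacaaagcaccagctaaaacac
Foxa2 downstream, mouse: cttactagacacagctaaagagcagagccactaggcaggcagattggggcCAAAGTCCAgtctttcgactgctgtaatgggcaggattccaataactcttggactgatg
The FOXA3 pair lies in an intergenic region, 14.4 kb downstream of the human start, at chr19:45878384-45878490 (hg38, plus strand), and 12.8 kb downstream of the mouse start, at chr7:19010637-19010743 (mm10, minus strand).
FOXA3 downstream, human: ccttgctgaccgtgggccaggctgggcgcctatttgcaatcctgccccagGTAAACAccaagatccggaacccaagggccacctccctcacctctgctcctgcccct
Foxa3 downstream, mouse: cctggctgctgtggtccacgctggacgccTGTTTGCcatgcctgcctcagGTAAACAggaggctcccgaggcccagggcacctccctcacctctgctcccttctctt
The FOXA1 pair lies in an exon of the neighboring gene MIPOL1, 49.0 kb downstream of the FOXA1 start, at chr14:37547030-37547054 (hg38, minus strand), and in an exon of Mipol1, 50.3 kb downstream of the Foxa1 start, at chr12:57496581-57496605 (mm10, minus strand).
FOXA1 downstream, human: aggctttggTGTTTACacagtgttg
Foxa1 downstream, mouse: ggcttttagTGTTTACacagtgttg
A Foxa2 region in chr2:148040436-148040542 (mm10, minus strand), 6.5 kb downstream of the start, matches human sequence at chr20:22578823-22578929 (hg38, minus strand), where neither HPAF-II list had a region. In the primary tumor line this region also had a shorter human match nearby. A control-only region, 7.4 kb downstream of FOXA2, lies between the matches.
Foxa2 near downstream, mouse: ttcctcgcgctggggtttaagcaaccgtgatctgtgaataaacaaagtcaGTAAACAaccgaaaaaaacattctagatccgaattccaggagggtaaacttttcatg
FOXA2 near downstream, human: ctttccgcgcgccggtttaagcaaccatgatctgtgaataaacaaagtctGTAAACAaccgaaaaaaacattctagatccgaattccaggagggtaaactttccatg

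The last set shows the central 200 bases of the highest-ranked regions found in control or in HNF4G-KO only and of the KPC region with the largest loss of rank in liver mets. They are at chr14:37668689-37668888 (hg38, minus strand, an intron of TTC6), chr20:22665703-22665902 (hg38, minus strand, intergenic) and chr2:148082446-148082645 (mm10, minus strand, intergenic).
FOXA1 upstream, control only: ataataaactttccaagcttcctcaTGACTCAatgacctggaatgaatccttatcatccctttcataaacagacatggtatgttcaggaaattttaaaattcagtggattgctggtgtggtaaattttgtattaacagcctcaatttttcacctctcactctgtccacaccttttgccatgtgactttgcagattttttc
FOXA2 upstream, HNF4G-KO only: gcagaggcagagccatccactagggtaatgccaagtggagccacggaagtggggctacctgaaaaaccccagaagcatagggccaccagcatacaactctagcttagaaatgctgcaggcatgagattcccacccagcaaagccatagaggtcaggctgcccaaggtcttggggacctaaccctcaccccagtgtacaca
Foxa2 upstream, lower in liver mets: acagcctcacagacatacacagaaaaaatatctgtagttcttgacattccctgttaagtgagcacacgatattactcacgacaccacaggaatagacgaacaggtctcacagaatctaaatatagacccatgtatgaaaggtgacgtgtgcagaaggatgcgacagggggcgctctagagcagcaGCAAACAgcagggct

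In HPAF-II cells the start sites of all 3 FOXA genes were open, with and without HNF4G. The FOXA1 gene (ENSG00000129514.8) spans chr14:37589552-37596059 in hg38, and the region over its start, 1972 bp wide in control, stood at percentile 89.8 in control and 91.4 in HNF4G-KO. This region also held a start site of TTC6, the neighboring gene on the other strand. FOXA2 (ENSG00000125798.15, chr20:22580998-22585455) had a region of 2484 bp in control and 2674 bp in HNF4G-KO that reached from its start into the gene, at percentiles 88.6 and 95.1. For FOXA3 (ENSG00000170608.3, chr19:45863989-45873797) the highest region within 1 kb of a start site lay 0.7 kb upstream, next to SYMPK, which encodes a scaffold protein of pre-mRNA 3′-end processing, at 86.6 in control and 88.6 in HNF4G-KO. The region over the FOXA3 start itself stood lower, at 75.1 in control and 67.2 in HNF4G-KO. The median over all protein-coding genes with a start-site region was 85.0 in control and 84.7 in HNF4G-KO, so the 3 genes ranked above it by the 1 kb rule, while the region over the FOXA3 start was below it.

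In the KPC lines the start-site regions of Foxa1 and Foxa3 stood near the median of genes with such a region by the 1 kb rule, and that of Foxa2 stood below it. The region over the outermost Foxa1 start (ENSMUSG00000035451.7, chr12:57540628-57546916 in mm10) ranked 69.2 in the primary tumor line and 71.8 in the liver mets line. It did not cover the start of the protein-coding transcript, which lies further into the gene. A weaker region 1.2 kb downstream ended next to that start, at percentile 12.0 in the primary tumor line. In liver mets it was 3 separate regions at 1.06 to 7.95, and the one at 7.95 covered that start. Foxa2 (ENSMUSG00000037025.11, chr2:148042877-148046969) had a start-site region of 1423 bp at percentile 33.8 in the primary tumor line and of 1447 bp at 52.2 in the liver mets line. Only 9.75% of genes with a start-site region ranked lower than Foxa2 in the primary tumor line and 19.9% in the liver mets line. For Foxa3 (ENSMUSG00000040891.6, chr7:19013284-19023538) a single region of 1244 bp at 73.0 in the primary tumor line was 2 regions in liver mets, 536 bp at 47.6 nearest the start and 404 bp at 76.0 on the Sympk side. The medians over all protein-coding genes with a start-site region were 74.3 and 76.9.

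**Figure D1:**
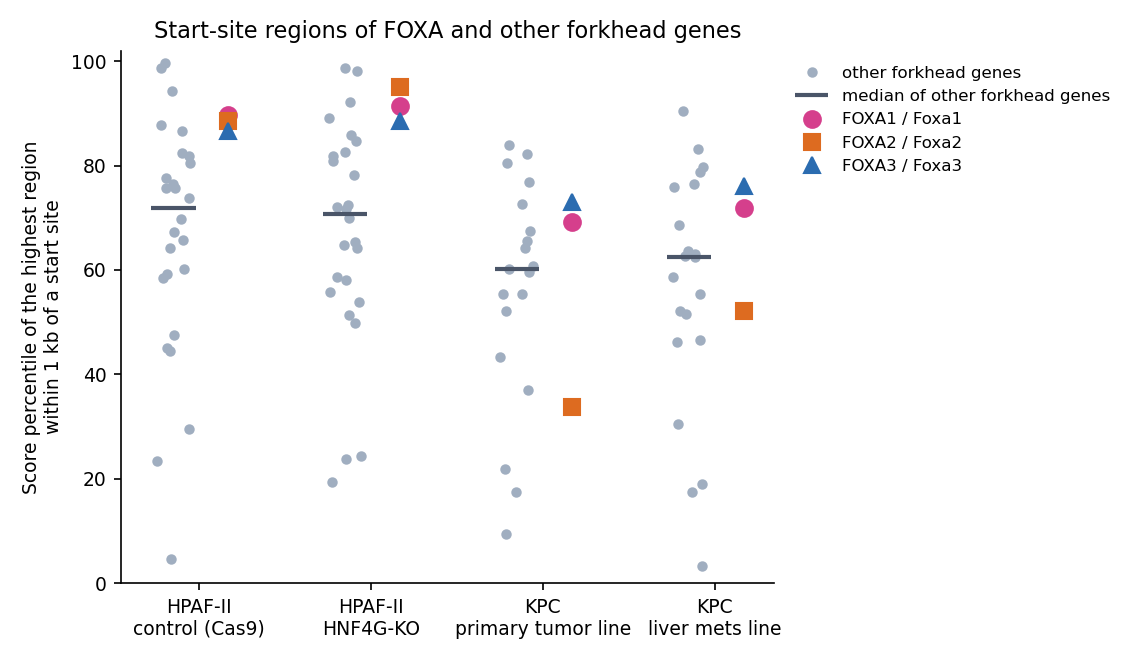
Score percentile (0 to 100) of the highest region within 1 kb of a start site, for FOXA1, FOXA2 and FOXA3 or their mouse orthologs (colored symbols) and for other forkhead genes (gray points, bar at their median), in each of the 4 lists. The FOXA genes sit between 86.6 and 95.1 in the HPAF-II lists, and Foxa2 sits at 33.8 and 52.2 in the KPC lists.

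The 48 other forkhead genes give the family's own range. A start-site region was present for 26 of them in each HPAF-II list, with medians of 71.8 in control and 70.8 in HNF4G-KO, and each FOXA gene lay above these medians. In mouse, 41 of the 48 were matched by symbol, of which 19 had a start-site region in the primary tumor line and 21 in the liver mets line, with medians of 60.3 and 62.5. Foxa1 and Foxa3 lay above and Foxa2 below these. Among 17 forkhead genes with a start-site region in all 4 lists, FOXN2 was closest to FOXA1, with a mean absolute difference of 4.99 percentile points over the 4 lists, followed by FOXN3 and FOXK2. FOXO4, at 4.07 points, and FOXK2, at 4.08, were closest to FOXA3, and FOXN2 came next. The gene nearest to FOXA2 was FOXD2, with a difference of 11.8 points, followed by FOXP4 and FOXO1.

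The 3 human loci differed in how many regions surrounded them. FOXA1 had 5 regions in control and 5 in HNF4G-KO, against a median of 17 and 15 per protein-coding gene, which placed it at percentile 8.69 and 11.8 of 20007 genes. FOXA2 had 17 and 16, and FOXA3, whose window holds 11 other coding genes, had 27 and 21. In mouse, Foxa1 had 12 regions in the primary tumor line and 13 in liver mets, Foxa2 21 and 20, and Foxa3 15 and 19, against medians of 11 and 13 per gene. The FOXA2 and Foxa2 windows hold no other coding gene. In the control list 16 of 27 FOXA3 regions lay within 1 kb of an annotated start site, against 4 of 17 at FOXA2, where 8 regions were intergenic.

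**Figure D2:**
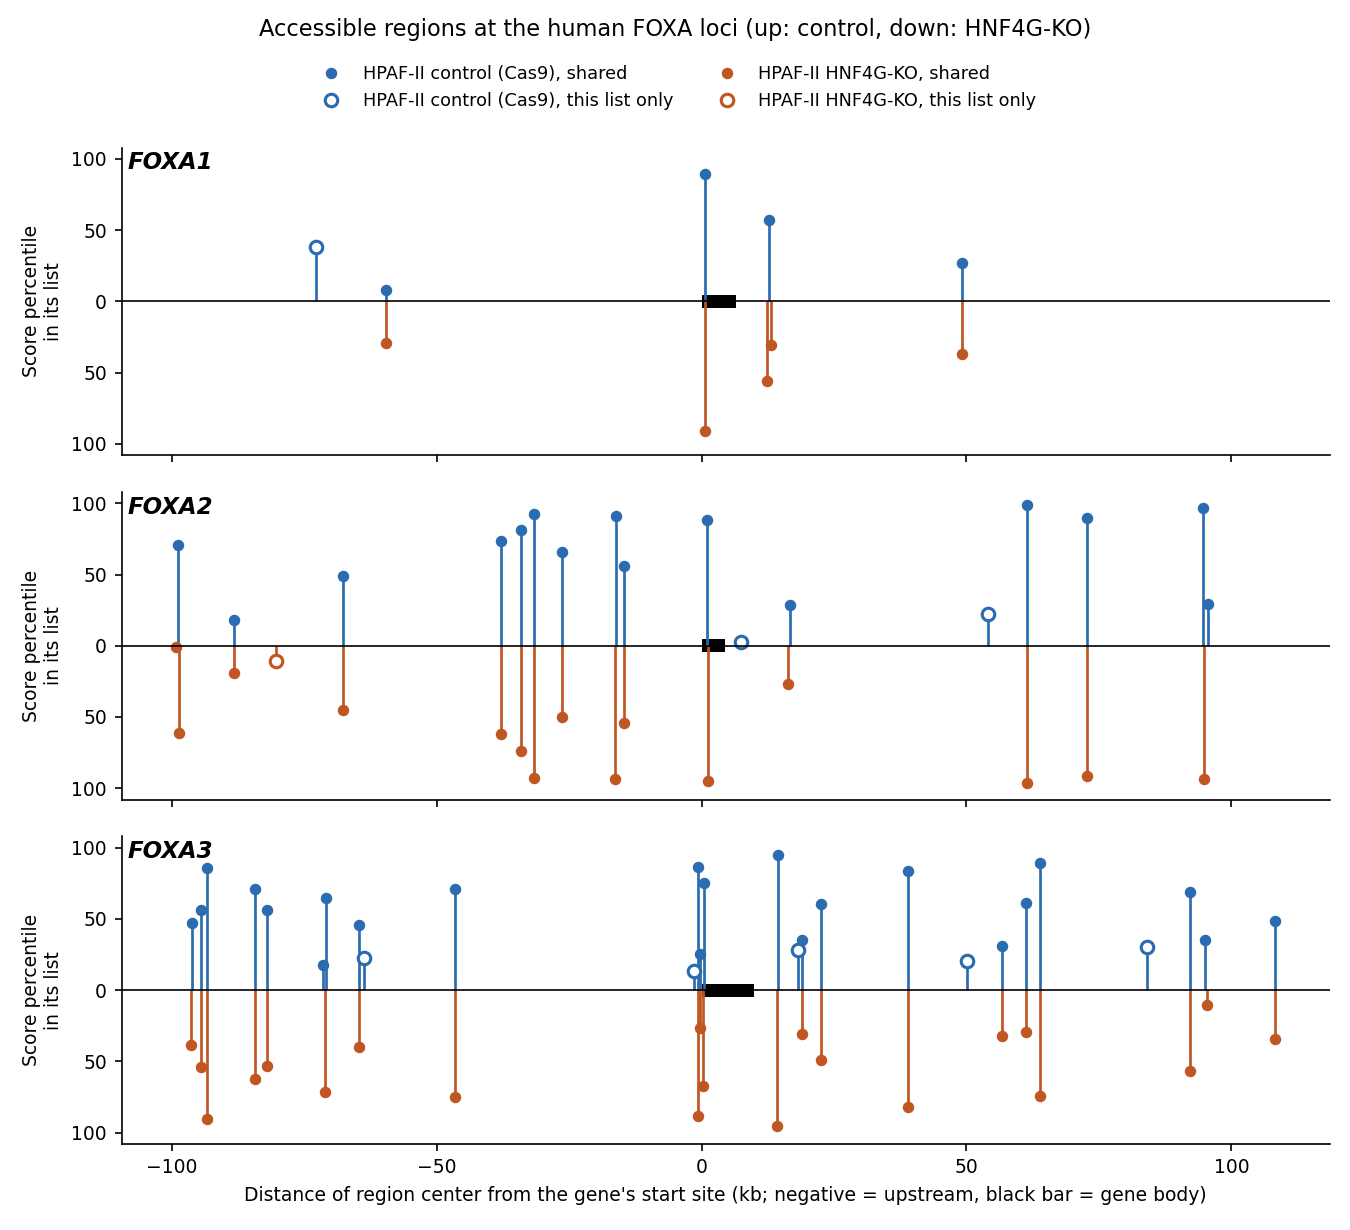
Accessible regions at FOXA1, FOXA2 and FOXA3 in HPAF-II control (upward) and HNF4G-KO (downward), by distance of the region center from the start site in kb (horizontal) and by score percentile in the list (vertical). Filled points are shared and open points are in 1 list only. The 8 regions in control only and the 1 in HNF4G-KO only lie at or below percentile 38.1.

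The strong open regions at the FOXA loci were present with and without HNF4G, like nearly all strong regions of the whole lists. The lists hold no level of HNF4G itself, so the knockout was not checked here, and in bulk cells an opening in fewer cells and a weaker opening in each cell cannot be told apart. Of 49 control regions 8 were absent from the HNF4G-KO list, 16.3% (8.51 to 29.0), beside 25.0% of all control regions. Of 42 HNF4G-KO regions 1 was absent from control, 2.38% (0.422 to 12.3), beside 6.76% of the whole list. Both whole-list shares lay inside these intervals. Regions of the same score decile were in control only at 20.9% and in HNF4G-KO only at 4.02%. None of the 9 regions found in 1 HPAF-II list stood above percentile 50 of its list. Such regions were weak in the whole lists too, with median percentiles of 17.9 in control and 11.5 in HNF4G-KO. At percentiles 50 to 60, 6.95% of all control regions and 0.207% of all HNF4G-KO regions were in 1 list only, and the shares were lower above.

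The control-only regions were weak and spread over the loci. The strongest, 458 bp in an intron of TTC6 72.7 kb upstream of FOXA1, stood at percentile 38.1 and holds 1 AP-1 word, in capitals in its sequence above. At FOXA2 they lay 54.1 kb downstream at percentile 22.6 and 7.4 kb downstream, by the start of the noncoding gene LINC00261, at 2.66. At FOXA3 there were 5, at percentiles from 13.4 by the start of SYMPK to 30.3 in an intron of NOVA2, a gene for a neuronal splicing factor, with others in RSPH6A, at NANOS2 and between genes. None of the 8 held the FOXA or HNF4 word. The HNF4G-KO-only region, 200 bp wide, lay 80.3 kb upstream of FOXA2 at percentile 10.5.

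The 41 shared control regions had a median percentile difference of −2.02 points (HNF4G-KO minus control), with 17 ranked higher in HNF4G-KO and 24 lower, beside 30.0% higher and 70.0% lower among all shared regions. Over all shared control regions the median was −4.65. Ranked among shared regions alone, which removes the unequal length of the lists, the FOXA-locus median was 4.72 and that of all shared regions 0.676, with 27 of the 41 higher and 14 lower, beside 53.4% and 46.6%. The direction of this median therefore depends on the ranking. At least 20 points higher in HNF4G-KO were 3 of the 41 regions, beside 2.85% of all shared regions, and at least 20 points lower were 2, beside 14.9%. Ranked among shared regions alone these were 3, beside 7.18%, and 1, beside 6.12%, so that the share of regions ranked at least 20 points higher was close to that of all shared regions.

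The 3 that ranked higher were small regions, and 2 of them were parts of a larger region in HNF4G-KO. At FOXA2, control had 246 bp at percentile 29.0 and 1236 bp at 96.9, about 95 kb downstream, where HNF4G-KO had 1 region of 1551 bp at 93.6. At FOXA3, control regions of 279 bp at 17.9 and 631 bp at 65.0 by the start of DMWD, 71 kb upstream, corresponded to 1 region of 1043 bp at 71.5. The region with no such merging was 59.5 kb upstream of FOXA1 in an intron of TTC6, at 8.12 in control and 29.5 in HNF4G-KO. Of shared regions that started within 5 percentile points of it, 81.9% had a lower change.

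The regions that ranked lower both lay downstream of FOXA3. The intergenic region 61.3 kb downstream, which holds an AP-1 word, stood at 61.6 in control and 29.5 in HNF4G-KO, and 8.90% of shared regions with a like control percentile had a lower change. The region 95.1 kb downstream, in NOVA2, stood at 35.5 and 10.5. It was less than 20 points lower when only shared regions were ranked, at −11.7 points, while the first kept −23.9. Downstream of the FOXA3 start or in the gene 9 of 11 shared regions ranked lower in HNF4G-KO, with a median of −11.4 points, beside 70.0% lower and the median of −4.65 among all shared regions, and 5 of 11 did so upstream, with a median of 1.32. Ranked among shared regions alone, 7 of 11 were lower downstream, with a median of −2.14, and 1 of 11 upstream, with a median of 8.68, beside 46.6% of all shared regions. The sides of the locus were compared after the values were seen, and the difference between them was not tested.

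The strongest region of the human loci lay at FOXA2 and was strong in both lists. The region 61.4 kb downstream of FOXA2, which holds the HNF4 word shown above together with 1 FOXA and 1 AP-1 word (and 1 GATA word in its wider control form), stood at 98.7 in control and 96.6 in HNF4G-KO. With an HNF4 word in 1.60% of control regions and 1.4% of HNF4G-KO regions in the whole lists, it was the only member with one in either list. The regions 94.7 kb and 31.7 kb away, downstream and upstream, stood at 96.9 and 92.2 in control and at 93.6 and 92.9 in HNF4G-KO. The strongest at FOXA3 lay 14.3 kb downstream, at 94.9 and 95.8, and held 2 FOXA words, 1 of them in the pair shown above.

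**Figure D3:**
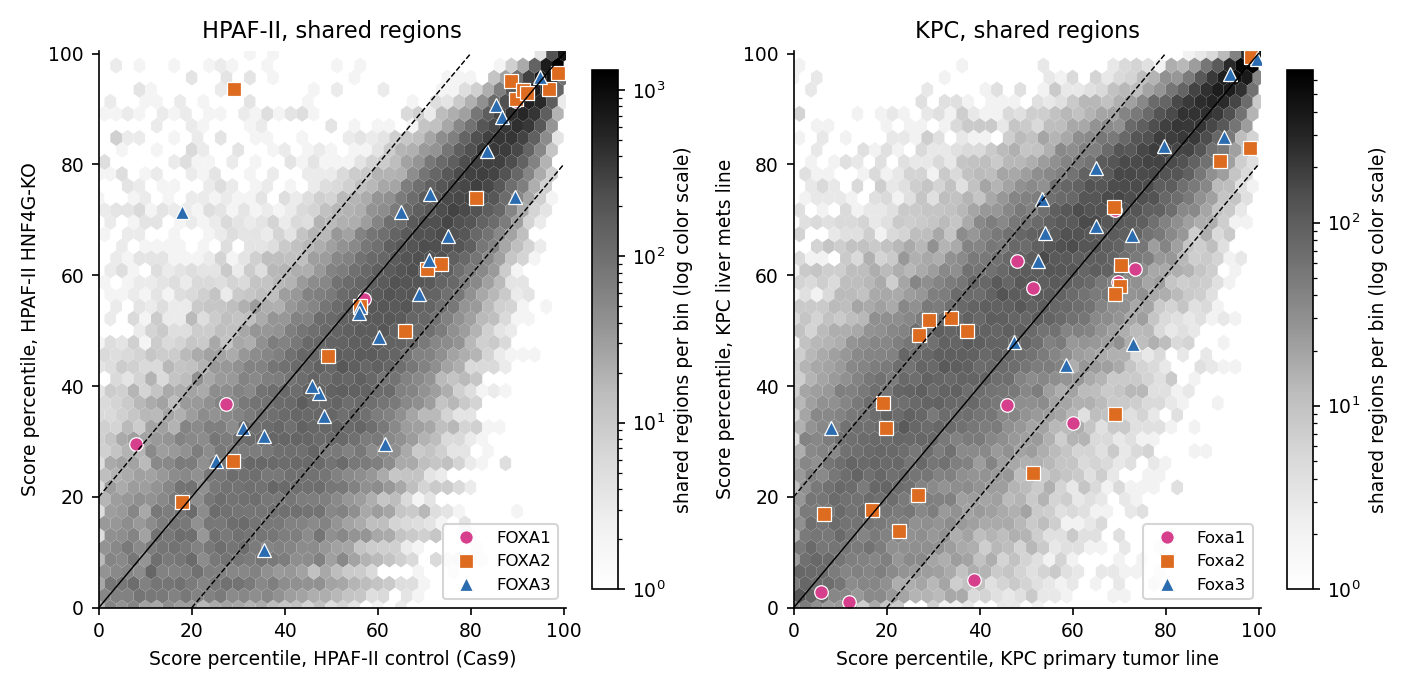
Score percentile of shared regions in both lists of a pair, HPAF-II at left (control horizontal, HNF4G-KO vertical) and KPC at right (primary tumor horizontal, liver mets vertical). Gray shows all shared regions on a log color scale, symbols the regions of the FOXA loci, and dashed lines a difference of 20 points. In HPAF-II 3 FOXA-locus regions lie above and 2 below the dashed lines, and in KPC 4 and 5.

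In the KPC pair most regions of the FOXA loci were also shared. Of 48 primary tumor regions 5 were absent from liver mets, 10.4% (4.53 to 22.2), beside 8.51% of the whole list. Of 52 liver mets regions 4 were absent from the primary tumor, 7.69% (3.03 to 18.2), beside 20.2% of all liver mets regions and 20.5% of those in the same score deciles. The whole-list share of liver mets lay above the interval for these loci. When both lists were reduced to the same length the shares were 18.8% (9 of 48) in the primary tumor, beside 15.6% of the whole list, and 4.65% (2 of 43) in liver mets, beside 14.0%. In HPAF-II they were then 13.0% (6 of 46) in control, beside 15.1%, and 4.76% (2 of 42) in HNF4G-KO, beside 12.7%. Without replicate lists the spread of such shares between samples was unknown.

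The primary tumor-only regions were weak, at percentiles from 0.0661 to 14.3, beside a median of 11.6 over all such regions of the list. The strongest lay 4.8 kb upstream of Foxa1 and held 1 AP-1 word and the FOXA variant, and the weakest was at Mypop and Gm10676, 31.6 kb downstream of Foxa3. Of the liver mets-only regions the strongest lay 41.4 kb downstream of Foxa1 at percentile 39.7, and another by the start of Irf2bp1, 19.5 kb downstream of Foxa3, stood at 33.9. The other two were at Six5, a homeobox gene upstream of Foxa3, at 5.20 and 2.86.

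**Figure D4:**
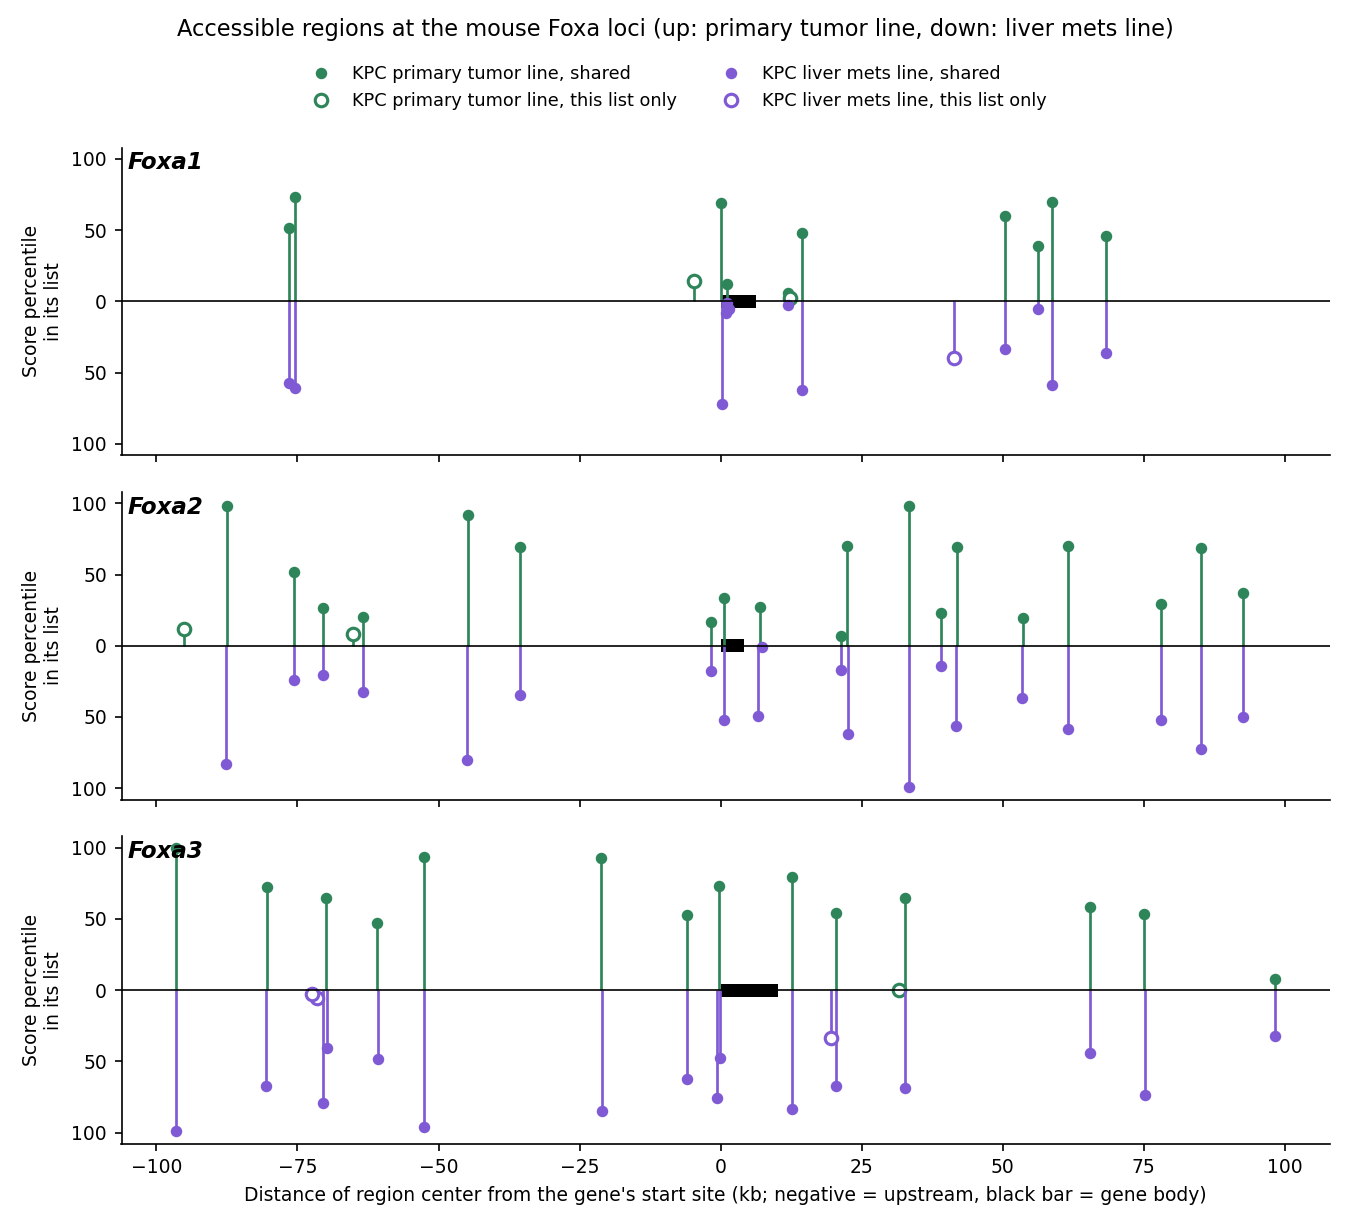
Accessible regions at Foxa1, Foxa2 and Foxa3 in the KPC primary tumor line (upward) and the KPC liver mets line (downward), by distance of the region center from the start site in kb (horizontal) and by score percentile in the list (vertical). Filled points are shared and open points are in 1 list only. Upstream of Foxa2 the region 35.6 kb away stands at 69.0 in primary tumor and 34.9 in liver mets.

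Between the KPC lines shared regions differed in both directions. The median difference of the 43 shared primary tumor regions was 0.65 points (liver mets minus primary tumor), with 22 ranked higher in liver mets and 21 lower, beside 64.9% and 35.1% among all shared regions, while all shared regions had a median of 3.67. Ranked among shared regions alone, the FOXA-locus median was −1.99 and that of all shared regions 0.988, with 17 of the 43 higher and 26 lower, beside 54.6% and 45.4%. At least 20 points higher in liver mets were 4 of 43 regions, beside 12.9% of all shared regions, and at least 20 points lower were 5, beside 5.12%. With the ranking among shared regions these counts were 0, beside 8.64% of all shared regions, and 6, beside 7.44%.

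At Foxa1 the distal regions in the neighboring gene Mipol1 ranked lower in liver mets. The region 56.2 kb downstream stood at 38.7 in primary tumor and 5.09 in liver mets, and 1.17% of shared regions with a like primary tumor percentile had a lower change. The region 50.4 kb downstream, which holds the FOXA word shown above, the FOXA variant and a TEAD word, stood at 60.1 and 33.3. Downstream of the Foxa1 start or in the gene 6 of 8 shared regions ranked lower in liver mets, with a median of −10.2 points, beside 35.1% lower among all shared regions, and 7 of 8, with a median of −11.5, when ranked among shared regions alone. The region 14.5 kb downstream ranked higher, at 48.1 in primary tumor and 62.5 in liver mets. Upstream of Foxa1, 1 of 2 shared regions ranked lower. The sides were compared after the values were seen, and the difference between them was not tested.

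At Foxa2 most upstream regions ranked lower in liver mets, while those downstream were close to all shared regions. Upstream, 5 of 7 shared regions ranked lower in liver mets, with a median of −11.2 points, beside 35.1% of all shared regions, among them those at 35.6 kb (69.0 and 34.9), 75.5 kb (51.5 and 24.2), 87.5 kb (98.2 and 83.0) and 44.8 kb (91.8 and 80.6). From the start site downstream 8 of 12 ranked higher, with a median of 6.91 points, beside 64.9% higher and a median of 3.67 among all shared regions, among them those at 78.1 kb (29.1 and 51.9) and at 6.9 kb (27.0 and 49.3, the higher of 2 liver mets regions), by the start of 9030622O22Rik. Ranked among shared regions alone, 6 of 7 upstream regions were lower, with a median of −15.2, and 7 of 12 downstream regions were higher, with a median of 3.33. The strongest region of the locus, in an intron of 9030622O22Rik 33.4 kb downstream, stood at 98.5 and 99.4. The sides were compared after the values were seen, and the difference between them was not tested.

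At Foxa3 the strongest regions were at start sites of neighboring genes in both lines, by Fbxo46 at 99.7 and 99.1 and by Dmwd at 93.8 and 96.2. Another, by Sympk 21.1 kb upstream, stood at 92.6 and 85.0. In and near Nova2, regions 98.2 kb and 75.1 kb downstream ranked higher in liver mets, at 8.03 against 32.5 and at 53.4 against 73.7. Downstream of the Foxa3 start or in the gene 5 of 6 shared regions ranked higher, with a median of 8.78 points, beside 64.9% of all shared regions, and upstream 4 of 8. Ranked among shared regions alone these were 4 of 6, with a median of 5.92, and 3 of 8, beside 54.6%. These sides too were compared after the values were seen, without a test. The start-site region counted as at least 20 points lower because its longest overlap in liver mets was the weaker of the 2 regions into which it was divided.

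The FOXA word was found at the FOXA loci about as often as in other regions of the same width. The FOXA word TGTTTAC was present in 5 of 49 control regions (10.2%, 4.44 to 21.8), 5 of 42 in HNF4G-KO (11.9%, 5.19 to 25.0), 5 of 48 in primary tumor (10.4%, 4.53 to 22.2) and 5 of 52 in liver mets (9.62%, 4.18 to 20.6). Regions of the same list and width decile held it at 10.6%, 10.2%, 10.0% and 8.86%, and whole lists at 9.76%, 9.51%, 9.71% and 8.90%. With TGTTTGC added, 9 of 21 Foxa2 regions in primary tumor held 1 of the words (42.9%, 24.5 to 63.5), beside 21.8% at the same widths, and 9 of 20 in liver mets (45.0%, 25.8 to 65.8), beside 19.9%, at the same places in both lists. At Foxa1 5 of 12 primary tumor regions did, 41.7% beside 19.6%, and 3 of 13 liver mets regions, 23.1% beside 15.5%, while at Foxa3 it was 1 of 15 and 1 of 19. In control 2 of 5 FOXA1 regions, 4 of 17 FOXA2 regions (23.5%, beside 20.8%) and 1 of 27 FOXA3 regions (3.70%, beside 19.1%) did. The AP-1 word was in 15 of 49 control regions, 30.6%, beside 32.2%, in 13 of 48 primary tumor regions, 27.1% (16.6 to 41.0), beside 38.2%, and in 11 of 52 liver mets regions, 21.2% (12.2 to 34.0), beside 36.0%, which lay above that last interval. Over the 4 whole lists the HNF4 word was in 1.28% to 1.60% of regions, the GATA word in 6.44% to 8.05% and the TEAD word in 3.38% to 4.29%, and the FOXA loci had it in 1, in 3 or 4 and in 2 regions per list. A word is a match of letters and not a shown binding site.

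**Figure D5:**
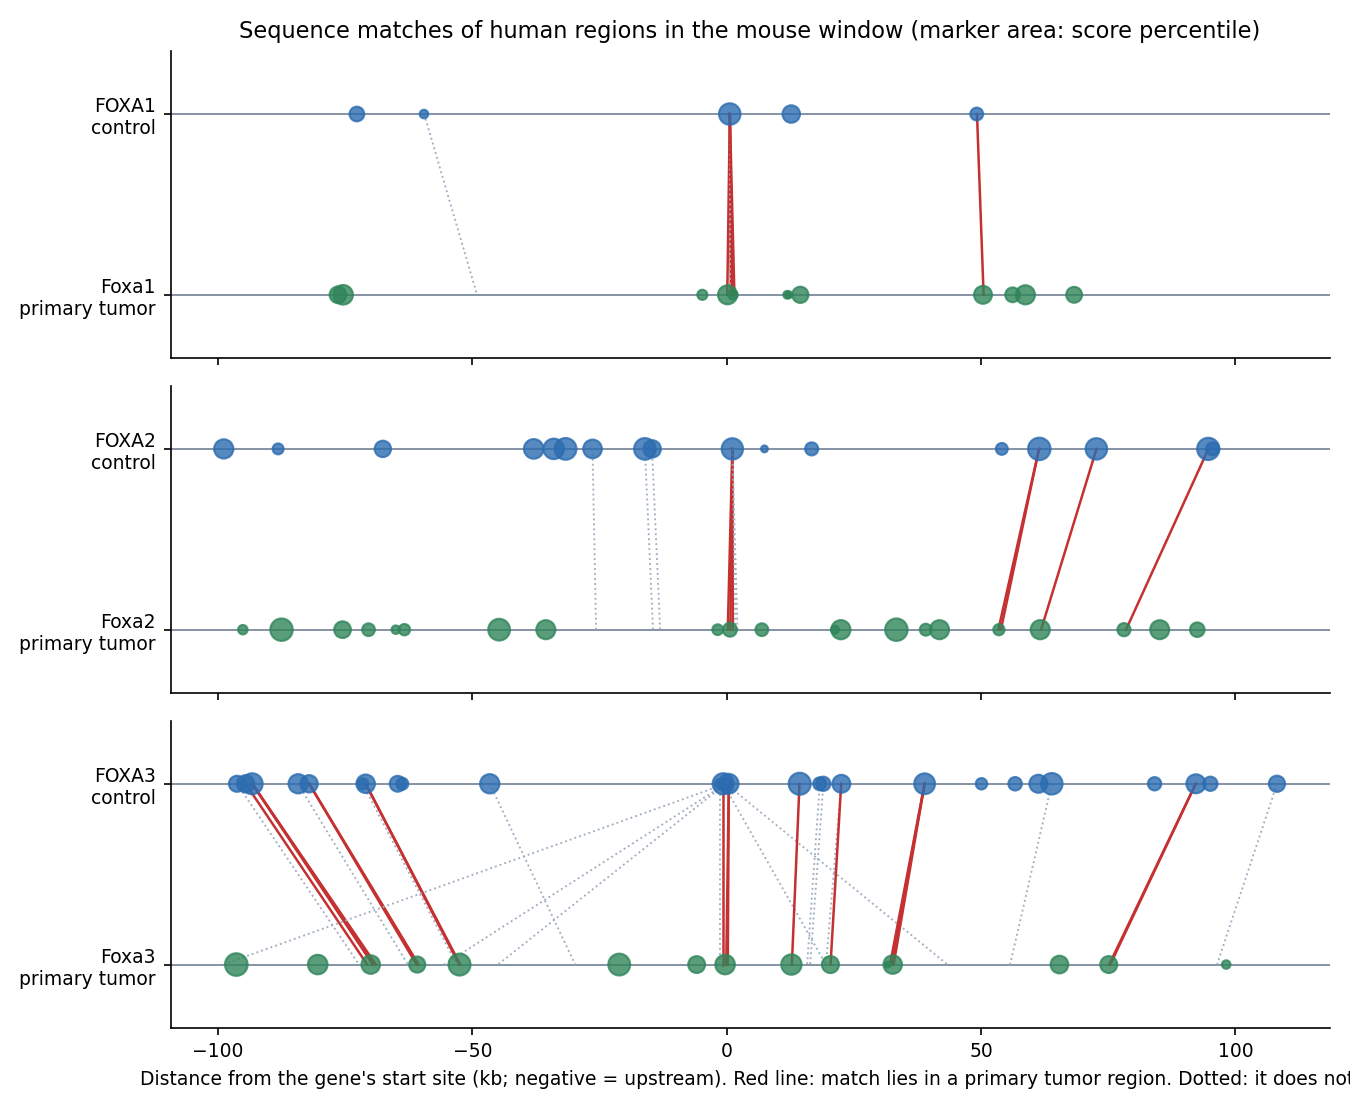
Sequence matches between control regions at the human loci (upper row of each panel) and the mouse window, with primary tumor regions in the lower row, by distance from the start site in kb, and with marker area for score percentile. Red lines end in a primary tumor region and dotted lines do not. Downstream of FOXA2, 3 human regions at 61.4, 72.7 and 94.7 kb are joined to mouse regions.

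The sequences of the human regions were searched in the mouse window of the same gene to see which open regions had a counterpart. Of 49 control regions 30 had a match in the same orientation, and for 17 of these it lay in a region of a KPC list. By locus these counts were 20 and 11 at FOXA3, 7 and 4 at FOXA2, and 3 and 2 at FOXA1. Other loci were not searched, so these counts cannot be called particular to the FOXA loci. Of 42 HNF4G-KO regions 27 had a match, 17 of them in a KPC region. From the mouse side 26 of 48 primary tumor regions and 32 of 52 liver mets regions matched the human window, with 15 and 21 in an HPAF-II region. Some matches of FOXA3 regions near the start fell at several distant places in the mouse window, and a match is given as a likeness of sequence alone.

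The strong FOXA2 regions downstream of the gene had open counterparts in the mouse lines. The human region at 94.7 kb (96.9 in control) matched the Foxa2 region at 78.1 kb (29.1 in primary tumor and 51.9 in liver mets). That at 72.7 kb (89.8) matched the one at 61.6 kb (70.1 and 58.1), with both TGTTTGC words and both GATA words of the human match kept and its TGTTTAC word not kept. That at 61.4 kb (98.7) matched the one at 53.5 kb (19.3 and 37.0), and there the HNF4 word was kept. The FOXA word of the human region reads TGTTTGC in mouse, in aligned sequence that lies outside the mouse region. The human region 16.1 kb upstream of FOXA2, at 91.2, matched mouse sequence where no KPC list had a region. In the other direction the strong Foxa2 region 44.8 kb upstream (91.8 and 80.6), with 1 FOXA word, matched human sequence 68.3 kb upstream of FOXA2. There the word was kept, and neither HPAF-II list had a region over the matched bases. A shared HPAF-II region lay next to them, 67.6 kb upstream, at 49.3 in control and 45.4 in HNF4G-KO. Percentiles of human and mouse lists are ranks in separate lists and are set side by side only.

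At the other loci the FOXA1 start-site region matched the mouse start with 2 AP-1 words kept, and the TGTTTGC word of the FOXA1 upstream stretch reads TGTTTAC in mouse, in aligned sequence outside the KPC regions. The weak FOXA1 region 49.2 kb downstream (27.3 in control and 36.8 in HNF4G-KO) matched the Foxa1 region 50.4 kb downstream (60.1 and 33.3), with the FOXA, TGTTTGC and TEAD words all kept. The FOXA3 region 14.3 kb downstream (94.9 and 95.8) matched the Foxa3 region 12.7 kb downstream (79.7 and 83.3), with the 1 of its 2 FOXA words that lies in the aligned bases kept. Over all aligned stretches of control regions 11 of 17 words of the 5 main kinds were kept in mouse, and of primary tumor regions 12 of 14 were kept in human. The FOXA word alone was kept in 2 of 5 cases from control and in 4 of 4 from primary tumor. The control words not kept lay in the FOXA2 regions 72.7 and 61.4 kb downstream and 26.4 kb upstream. How often other words of these lengths were kept was not examined.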

How the data were processed

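ATAC-seq of 16 samples in 4 groups of 4 was analysed from 4 deposited region lists, 1 per group, with the samples grouped by their titles. The submitters' processing notes name Bowtie2 2.2.6, MACS2 2.1.1.20160309, DiffBind and the builds hg38 and mm10, with no order of use. The settings for calling ATAC-seq regions, any adjustment for the transposase and the way replicates were combined are not given in the sources used here. The methods text on ATAC-seq covers the human line and not the mouse lines. The deposited score of each region has no stated scale, so the authors' score was used only as a rank within its list, and coverage, read depth and replicate spread were unknown. Because the files hold region lists and no counts, no test was made.

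Genes and exons came from GENCODE v44 (hg38) and vM21 (mm10), and no region passed the end of its chromosome in these builds. The members and lists were chosen with earlier results of these data known. Each window was a gene plus 100 kb of flank at either end, sharing was an overlap of at least 1 bp, and each region was paired with its longest overlap. Start-site regions were the highest-scoring within 1 kb of any annotated start. Other genes are named where a region in 1 list, one that moved by at least 20 percentile points, or 1 of the 3 highest of a window lies in the gene or within 1 kb of its start. Consensus words were searched on both strands of whole regions. Human and mouse windows were compared with blastn (BLAST 2.17.0, E-value 1e-5), and no coordinates were converted. Some results, among them a gene list and further sequences, are not reported here. Upstream sequences are from RefSeq, and all other sequences were read from hg38 and mm10. Alternatives were other windows, overlap rules, list lengths, rankings, start-site rules, words and E-values. The calculations used Python 3.11.15, pandas 2.3.3 and scipy 1.17.1, and the pairing and counting steps were tested on simulated lists.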

Additional observations from a re-analysis of the deposited data

How the results depend on the processing

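No paired analysis was possible because each group's replicates were combined into 1 region list, and for the same reason no replicate could be left out. Of 75 values under alternative settings 55 stayed inside the interval or tolerance set for the value in the report. That interval is wide with so few regions: among these 55 the primary tumor-only share reached 18.8%, the HNF4G-KO-only share 4.76% and the control-only share 27.3%, and the median was −0.18 in HPAF-II with 50 kb windows and 3.68 in KPC with 10 kb windows. The HNF4G-KO-only share was 0% among the upper 50% of each list by score and 0% with windows of 10 kb or 50 kb. The median difference in HPAF-II was 4.72 when ranked among shared regions and 1.11 with 10 kb windows, and that in KPC was −1.99 when ranked among shared regions, against −2.02 and 0.65. This last ranking, also applied to the counts of moved regions after seeing the data, gave 1 region lower in HNF4G-KO, beside 6.12% of all shared regions, and 0 higher in liver mets, beside 8.64%. Also chosen after seeing the data, it moved the median downstream of FOXA3 to −2.14, upstream of FOXA3 to 8.68 and downstream of Foxa2 to 3.33. With start sites of protein-coding transcripts within 250 bp the percentile was 75.1 for FOXA3 in control, 67.2 for FOXA3 in HNF4G-KO, 12.0 for Foxa1 in primary tumor and 47.6 for Foxa3 in liver mets. For Foxa1 in liver mets it stayed 71.8, as only there the higher region lay within 250 bp of the protein-coding start. In the central 200 bp of regions the FOXA word was in 0% in control, 2.38% in HNF4G-KO and 4.17% in primary tumor, beside 4.24%, 4.32% and 3.93% at the same widths. With TGTTTGC added, over whole regions, it was 31.2% in primary tumor, beside 22.2%, and 25.0% in liver mets, beside 19.1%. All 18 members found in 1 list of their pair lay in the lower 50% of that list, and such regions of the whole lists had median percentiles of 11.5 to 19.4. No depth was known to say how far such weak regions could be told from none.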
